A study of Mus musculus with 6 samples.

Results

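The alveolar macrophage genes Marco, Ear1, Ear2, Mrc1, Cd68, Pparg, Krt79 and Itgax were followed in whole lungs of mice with and without lincRNA-Cox2. The genes were chosen by symbol, and all 8 symbols had 1 row each among the 20494 rows of the authors' deposited table. The mice were untreated C57BL/6 males aged 4 months, and RNA was taken from the whole lung. One group of 3 libraries carried a knockout of lincRNA-Cox2, a long noncoding RNA made next to the cyclooxygenase gene Ptgs2, and the other group of 3 was wild type. The labels state neither how the knockout was made nor whether the mice were littermates, and values of single libraries were not used here for the 8 genes, so each has 1 mean per genotype and 1 comparison.

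Alveolar macrophages live in the air spaces, where they take up inhaled particles, microbes and spent surfactant. Granulocyte-macrophage colony-stimulating factor, made largely by the alveolar epithelium, induces the nuclear receptor gene Pparg in their precursors, and Pparg sets their identity and their handling of surfactant lipids. Their surface carries scavenger receptors and lectins, their lysosomes are rich in the glycoprotein encoded by Cd68, and mouse alveolar macrophages also make ribonucleases of the Ear family.

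None of the 8 genes passed the authors' DESeq2 test between the genotypes (0 called at an adjusted p under 0.05). Of the 16902 rows given an adjusted p in the authors' deposited table, 1.09% were called, 0.592% higher and 0.497% lower in knockout. At an unadjusted p under 0.05 there were 2 of 8, Marco (higher) and Krt79 (lower), against 8.47% of all those rows, 4.43% higher and 4.04% lower. The group mean was higher in knockout for 5 genes, Marco, Mrc1, Ear2, Ear1 and Itgax, and lower for 3, Cd68, Pparg and Krt79. The median log2 ratio of knockout over wild type was 0.06 over the 8 genes and -0.0013 over all rows with an adjusted p. Added up, the 8 genes came to 15992 normalized counts in wild type and 16772 in knockout, a ratio of 1.05. In bulk tissue, fewer cells of a type and less RNA per cell cannot be told apart, so these ratios describe the lung and not the single macrophage.

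**Figure D1:**
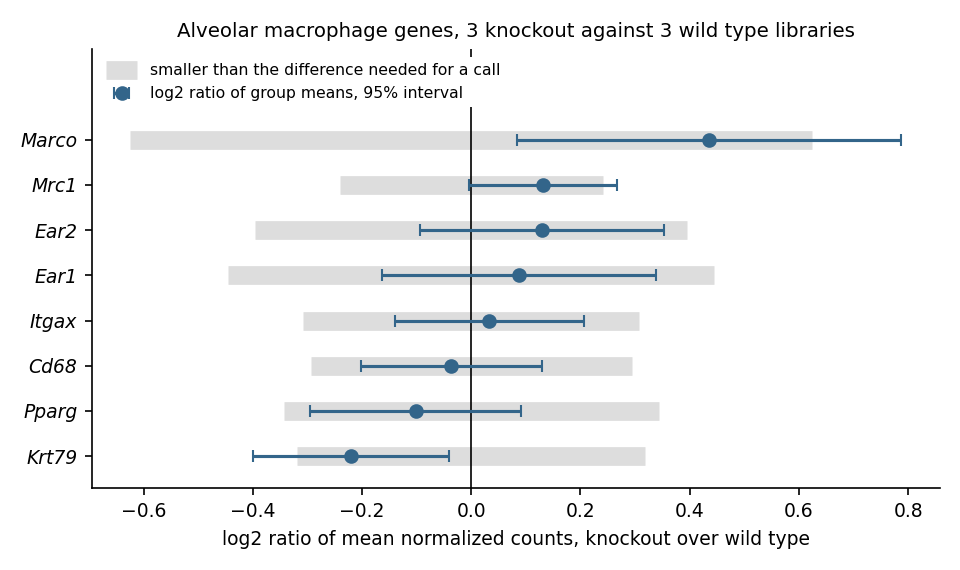
Log2 ratio of the mean normalized counts, knockout over wild type (3 libraries each), for the 8 genes, with 95% intervals from the standard error before shrinkage. Grey bars span the differences too small to be called for each gene; all 8 points lie inside them, from -0.22 for Krt79 to 0.44 for Marco.

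The labels were checked on the targeted RNA. Lincrna-cox2 had means of 311 normalized counts in wild type and 0.666 in knockout in the authors' deposited table. Normalized counts are counts per gene scaled by the depth of each library, and they summed to 3.71e+07 per wild type library and 3.68e+07 per knockout library. The relative size factors of the 6 libraries lay between 0.961 and 1.03.

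Among the surface receptors, Marco showed the largest ratio of the 8. Marco encodes a class A scavenger receptor that binds bacteria and particles without antibody. It is a protein-coding gene on the minus strand of chr1:120474538-120505024 (mm10), 29.6 Mb from Ptgs2 on the same chromosome. Its means were 498 normalized counts in wild type and 673 in knockout in the authors' deposited table. That is 1.35-fold, with a 95% interval of 1.06 to 1.73, an unadjusted p of 0.0152 and an adjusted p of 0.36 (DESeq2, the authors' deposited table). At the spread of this gene, a ratio of at least 1.54 was needed for a call. The interval of this one gene lay above 1, but the difference did not pass once p-values were adjusted over all rows.

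Mrc1 encodes the mannose receptor, a lectin that clears glycoproteins and microbes and that is also made by interstitial macrophages and lymphatic endothelium. It lies on the plus strand of chr2:14229392-14332057 and had means of 4528 and 4961 normalized counts, wild type first, in the authors' deposited table. The ratio was 1.10 with a 95% interval of 0.997 to 1.20 and an adjusted p of 0.616 (DESeq2, the authors' deposited table). A ratio of 1.18 would have been called, the smallest such value among the 8 genes.

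Itgax encodes the integrin alpha chain CD11c, which pairs with the beta chain encoded by Itgb2 and is shared with dendritic cells. It lies on the plus strand of chr7:128129547-128150657, and its means were 3167 and 3239 in the authors' deposited table. The ratio was 1.02 (95% interval 0.907 to 1.15, adjusted p = 0.997 in the authors' deposited table). Its longest coding transcript has 3997 windows of 50 bases, of which 9.61% also occur in transcripts of Itgad, a related integrin gene. Itgad, named after its values were seen, averaged 161 in wild type and 226 in knockout in the authors' deposited table (unadjusted p = 0.0107, adjusted p = 0.298).

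Cd68, the lysosomal glycoprotein used as a general macrophage marker, differed by less than its standard error between the genotypes. The gene lies on the minus strand of chr11:69664213-69666153. Its means were 1686 and 1644 in the authors' deposited table, a ratio of 0.975 with a 95% interval of 0.869 to 1.09 and an adjusted p of 0.997. A decrease to 0.815 of the wild type mean or less would have been called.

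Ear1 and Ear2 encode secreted ribonucleases that eosinophils make as well, and their sequences are shown because they decide how well reads can be told apart. Both lie in the Ear cluster of chromosome 14, Ear1 on the minus strand (chr14:43818765-43875517) and Ear2 on the plus strand (chr14:44102654-44103534). Their coding sequences are 95.1% identical (448 of 471 aligned bases), and Ear10, another gene of the cluster, is 97.0% identical to Ear2. The first 150 coding bases of each are given below from the GENCODE M21 transcripts, 5′ to 3′, with capitals where Ear1 or Ear10 differs from Ear2.
Ear2: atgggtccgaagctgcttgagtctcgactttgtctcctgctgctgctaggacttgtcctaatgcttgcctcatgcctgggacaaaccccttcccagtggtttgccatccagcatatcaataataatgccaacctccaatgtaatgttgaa
Ear1: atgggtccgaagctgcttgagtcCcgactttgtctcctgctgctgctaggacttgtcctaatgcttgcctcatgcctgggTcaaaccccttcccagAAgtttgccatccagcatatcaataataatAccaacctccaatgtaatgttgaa
Ear10: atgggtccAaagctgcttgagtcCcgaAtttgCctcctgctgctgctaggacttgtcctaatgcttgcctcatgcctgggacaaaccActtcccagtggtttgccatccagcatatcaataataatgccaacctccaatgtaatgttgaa

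In this stretch Ear1 and Ear10 each differ from Ear2 at 5 bases. Reads were 50 bases long and paired. Of the 664 windows of 50 bases in the Ear1 transcript, 57.4% also occur in a transcript of another gene, 23.8% in Ear2 and 41.4% in the pseudogene Ear-ps9. For Ear2 the share was 41.5% of 670 windows, with 26.0% found in Ear10 and 23.6% in Ear1. The corresponding share was 0 for Marco, Mrc1, Cd68, Pparg and Krt79. These shares count single windows. The share of read pairs with both ends in shared windows was not measured. How reads that match several genes were counted is not given in the sources used here, so the split between Ear1 and Ear2 is uncertain.

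The near identity reaches into the promoters. Over promoter windows of 300 bases, Ear1 and Ear2 were identical at 294 of 303 aligned positions, with 6 gaps (97.0%). Ear10 and Ear2 were identical at 274 of 306, with 12 gaps (89.5%). Only part of these windows, a stretch of 165 bases, is printed below, and the differences between Ear1 and Ear2 lie outside it. The RefSeq promoter table (GRCm38.p6) places a stretch of 165 bases, from 180 to 16 bases before the Ear2 start, at chr14:44102474-44102638 on the plus strand. The matching stretch of Ear1, chr14:43819657-43819821 on the minus strand, has the same 165 bases, and that of Ear10, chr14:43923616-43923780 on the minus strand, differs at 11, shown in capitals. GENCODE M21 has 2 Ear1 transcripts: the stretch lies before the start of the one compared here (base 43819639) and inside the span of the gene, which the other transcript extends to 43875517.
Ear1 and Ear2: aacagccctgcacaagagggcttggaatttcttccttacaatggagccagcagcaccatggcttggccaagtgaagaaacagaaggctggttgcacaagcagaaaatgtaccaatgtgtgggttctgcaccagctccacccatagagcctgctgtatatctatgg
Ear10: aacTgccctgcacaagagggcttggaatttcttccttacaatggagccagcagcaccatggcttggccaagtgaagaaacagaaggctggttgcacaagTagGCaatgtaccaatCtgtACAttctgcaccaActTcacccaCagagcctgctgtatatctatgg

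Ear2 had means of 2888 in wild type and 3159 in knockout in the authors' deposited table, a ratio of 1.09 (95% interval 0.937 to 1.28, adjusted p = 0.914). Ear1 had 1313 and 1396 there, a ratio of 1.06 (0.893 to 1.26, adjusted p = 0.989). Ear10 was far lower, at 66.6 and 79.2 in the authors' deposited table, with a ratio of 1.19 and a wide interval of 0.852 to 1.66 (adjusted p = 0.939). All 3 ratios were above 1, and none was called. Because these genes hold windows in common, their ratios may not be independent.

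The lowest members of the family could be read by library, because a low group mean can be written as only 1 set of whole reads. Ear7 was made of 9, 7 and 12 reads in the wild type libraries and 19, 13 and 13 in the knockout libraries. In normalized counts the knockout values of 12.7 to 18.5 lay above the wild type values of 6.95 to 12.5, without overlap. The same held for 6.13% of the 2382 rows read this way, which have a mean of at least 5 and no group mean above 40. For Ear7 the authors' deposited table holds an unadjusted p (0.254) but leaves the adjusted one empty. Ear5 held 5, 1 and 2 reads in wild type and 1, 0 and 5 in knockout, and the groups overlapped. Ear3, Ear4, Ear6, Ear12, Ear14, Rnase2a and Rnase2b were not analysed here.

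Across the wider RNase A family, 11 of 22 listed genes had a row and 7 an adjusted p, with 0 called. Of these 7, 6 were higher in knockout, at a median log2 ratio of 0.13. Among all 16902 rows with an adjusted p, 8352 were higher. The 6 include Ear1, Ear2 and Ear10, which may share reads and so may not vary independently. At an unadjusted p under 0.05 there were 2, Rnase4 and Ang, which encode secreted ribonucleases. Rnase4 had 14309 and 16940 normalized counts in the authors' deposited table (ratio 1.18, adjusted p = 0.241), and Ang 1648 and 1883 (ratio 1.14, adjusted p = 0.497).

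Since eosinophils also make Ear RNAs, genes listed as eosinophil markers were measured beside them. Of 7 eosinophil genes with an adjusted p, 0 were called by DESeq2, and 5 had an unadjusted p under 0.05, all higher in knockout, beside 4.43% of all rows. The median log2 ratio was 0.39, and the summed level of the 9 genes in the table was 2059 in wild type and 2460 in knockout. Siglec5, also listed below among alveolar macrophage markers, made up 945 and 972 of these sums. Which gene this symbol stands for is not settled. Prg2, the major basic protein of eosinophil granules, was made of 12, 18 and 6 reads in wild type and 32, 61 and 30 in knockout. The lowest knockout library, at 30.7 normalized counts, lay above the highest wild type library, at 17.9 (adjusted p = 0.0532 in the authors' deposited table). Its knockout mean of 40.6 lay above the limit of 40 up to which low rows were counted for the share given with Ear7. Ccr3, the eotaxin receptor, had means of 380 and 501 there, a ratio of 1.32 with an adjusted p of 0.0852. Prg3, a second granule protein, was near 0, with 0, 2 and 1 reads against 3, 2 and 1. The part of eosinophils in the Ear1 and Ear2 levels was not tested.

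**Figure D2:**
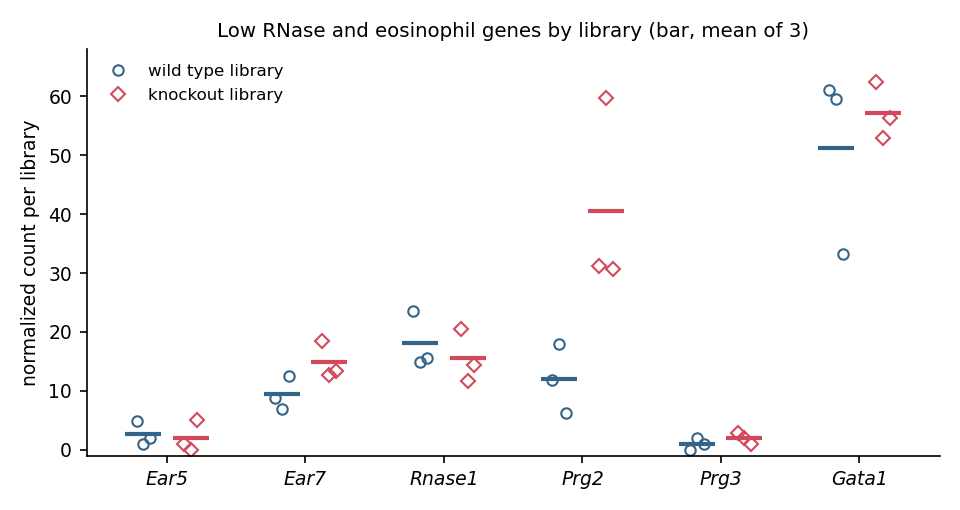
Normalized count in each of the 3 wild type (circles) and 3 knockout (diamonds) libraries for low RNase and eosinophil genes, with bars at the means. The groups do not overlap for Ear7 and Prg2, and they overlap for Ear5, Rnase1, Prg3 and Gata1.

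Pparg, the nuclear receptor on which alveolar macrophage identity rests, lies on the plus strand of chr6:115360951-115490399. Its means were 785 in wild type and 732 in knockout in the authors' deposited table, a ratio of 0.932 with a 95% interval of 0.815 to 1.07 (adjusted p = 0.936). A decrease to 0.788 or less would have been called. Adipocytes express Pparg as well, and their genes had lower means in knockout with a wide spread. Of 15 adipocyte genes with an adjusted p, Pparg among them, 11 were below their wild type mean and 0 were called, at a median log2 ratio of -0.33 (1 at an unadjusted p under 0.05, Cidec). Adipoq, encoding adiponectin and named after its values were seen, averaged 338 in wild type and 197 in knockout in the authors' deposited table. The spread between libraries of one genotype that its standard error implies was 59.3%, against 7.54% for Pparg. The part of adipocytes in the Pparg level was not tested.

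The signals and partners of Pparg were measured next. Of 22 genes for the GM-CSF pathway, TGF-beta input, retinoid and liver X receptors and cofactors, 0 were called by DESeq2, and the median log2 ratio was -0.02. Csf2, which encodes GM-CSF, averaged 92.1 and 91.3 in the authors' deposited table, a ratio of 0.992 with a 95% interval of 0.722 to 1.36. Csf2ra and Csf2rb, its receptor chains, had ratios of 1.02 and 1.07, and Spi1, the gene for the myeloid factor PU.1, had 1.05, with adjusted p-values of 0.997, 0.89 and 0.986 in the authors' deposited table. The 2 genes at an unadjusted p under 0.05 were both lower in knockout. Bach2, a transcriptional repressor, averaged 1208 in wild type and 1028 in knockout in the authors' deposited table (adjusted p = 0.235).

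Lipid uptake, storage and efflux, the processes under Pparg and the liver X receptors, gave 1 called gene of 26 with an adjusted p. This was Fabp5, a fatty acid binding protein, with 2674 and 4495 normalized counts in the authors' deposited table (adjusted p = 1.76e-08). Over all rows with an adjusted p, 1.09% were called. At an unadjusted p under 0.05 there were 2 higher in knockout, Fabp5 among them, and 3 lower, Pltp among them. The shares of all those rows were 4.43% higher and 4.04% lower. The list had a median log2 ratio of 0.03, and 16 of 26 genes were above their wild type mean. Cd36, a fatty acid and lipoprotein receptor that endothelium also carries, had a ratio of 1.09 (adjusted p = 0.725 in the authors' deposited table). Npc2, a carrier of lysosomal cholesterol, had 1.07 and Pltp, the phospholipid transfer protein, 0.901, with adjusted p-values of 0.8 and 0.4 in the authors' deposited table.

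Krt79 is a type II keratin that is also listed among alveolar macrophage markers. It lies on the minus strand of chr15:101929332-101940324. Its means were 1127 and 968 in the authors' deposited table, the lowest ratio of the 8 genes at 0.859. The 95% interval was 0.758 to 0.973, with an unadjusted p of 0.0164 and an adjusted p of 0.372 (DESeq2, the authors' deposited table). A ratio of 0.802 or less was needed for a call. Marco and Krt79, both counted as markers of one cell type, thus had intervals on opposite sides of 1; whether they differ from each other was not tested.

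Krt78 and Krt4, neighbours of Krt79 in the keratin cluster that mark stratified epithelium, were low. Krt78 held 17, 8 and 11 reads in the wild type libraries and 10, 7 and 12 in the knockout libraries, and Krt4 held 5, 12 and 9 against 13, 12 and 7, both with overlap. Krt5, the basal cell keratin, held 27, 52 and 38 reads in wild type and 10, 39 and 0 in knockout, so that knockout libraries differed widely among themselves and the groups overlapped. Ivl, a gene of the cornified envelope named after its values were seen, held 7, 12 and 9 reads in wild type against 0, 2 and 1, without overlap, as in 8.27% of the low rows. Krt14, another basal cell keratin, went the other way without overlap, with 1, 1 and 1 reads against 3, 16 and 6, at a mean too low for that share. Of the 5 stratified epithelium genes with an adjusted p, 0 were called and 0 had an unadjusted p under 0.05. Of these 5, 1 was higher and 4 were lower in knockout. Ivl and Krt14 have no adjusted p and fall outside the 5. Their unadjusted p-values in the authors' DESeq2 test were 0.0081 and 0.0232. The part of stratified epithelium in the Krt79 level was not tested. Krt7, Krt80, Krt8 and Krt19, keratins of simple and lung epithelium, had ratios from 0.961 to 1.03, with adjusted p-values from 0.976 to 0.999 in the authors' deposited table. Of the 10 keratins with an adjusted p, 0 were called by DESeq2, and Krt79 was the 1 at an unadjusted p under 0.05.

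Levels of different genes were compared per kilobase of exon. In wild type the order ran from Ear2 (4016 normalized counts per kb) through Ear1 (1799), Cd68 (1341), Mrc1 (711), Itgax (659), Pparg (266) and Marco (259) to Krt79 (237). Ear2 lay at the 98.4th percentile of the 17488 symbols placed on the annotation, and Krt79 at the 56.5th. The lengths are those of GENCODE M21, which may differ from the gene models that were counted. Sequence shared within the Ear family also leaves the places of Ear2 and Ear1 uncertain. Mrc1 and Itgax were 1.08-fold apart, a log2 difference of 0.11, no larger than the between-library SD of Itgax (0.11; 0.08 for Mrc1). Pparg and Marco were 1.03-fold apart and Marco and Krt79 1.09-fold, both within the SD of Marco, 0.22. The other neighbours in this order were at least 1.34-fold apart. In knockout Marco (350 per kb) stood above Pparg (248), and the other 6 genes kept their rank. The low end of the order depends on the length used: with the longest transcript in place of the union of exons, Krt79 came to 460 and Pparg to 369, above Marco.

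**Figure D3:**
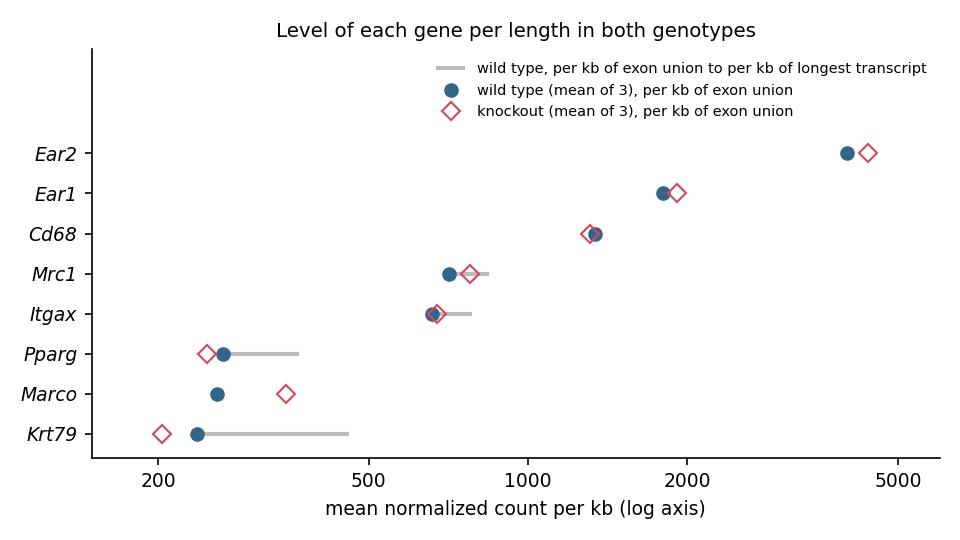
Mean normalized count per kb of exon (log axis) of each gene in wild type (circles) and knockout (diamonds), with grey lines to the wild type value per kb of the longest transcript. Ear2 was highest at 4016 and Krt79 lowest at 237 in wild type, and only Marco and Pparg exchange places in knockout.

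The 8 genes differed in how much they varied between libraries of one genotype. The deposited standard errors imply a coefficient of variation beyond counting noise, after the moderation that DESeq2 applies across genes. It was 14.7% for Marco, 10.5% for Ear1 and 9.48% for Ear2. Rows with a mean within 1.5-fold of each gene had medians of 7.59%, 5.97% and 5.18%, and the 3 genes lay at the 97.7th, 97.2nd and 97.6th percentiles of those rows. Itgax, at 7.29%, lay at the 90.7th percentile. Mrc1 (5.69%), Cd68 (6.75%), Pparg (7.54%) and Krt79 (7.13%) lay between the 67.1st and the 79.5th percentile. Small differences were therefore least detectable for Marco, Ear1 and Ear2, which needed ratios of at least 1.54, 1.36 and 1.32 for a call.

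**Figure D4:**
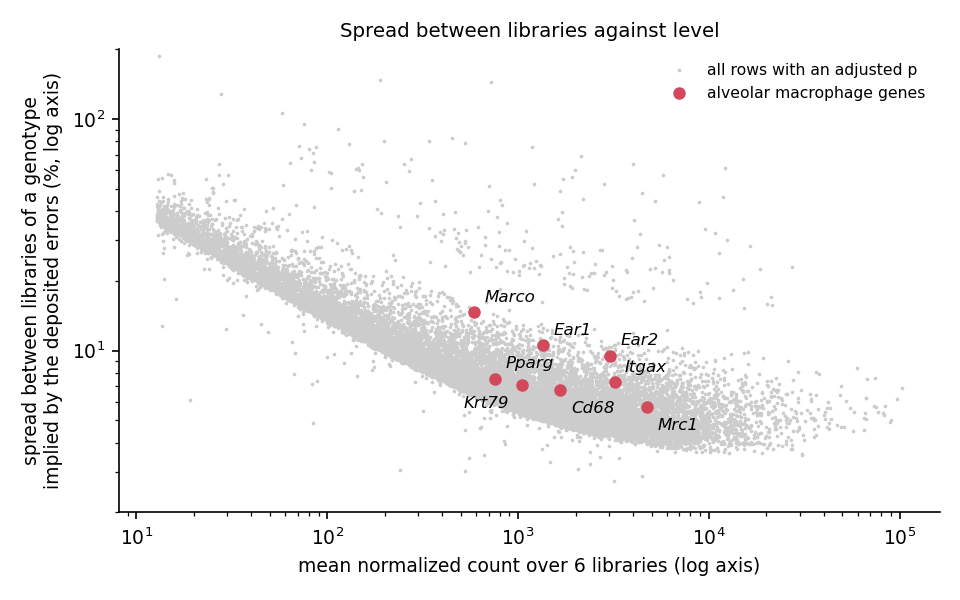
Coefficient of variation between libraries of a genotype implied by the deposited errors (percent, log axis) against the mean level in normalized counts over all 6 libraries (log axis). Grey points are all rows with an adjusted p and a value above 0; Marco (14.7%), Ear1 (10.5%) and Ear2 (9.48%) lie at the upper edge of rows of their level, and Mrc1 (5.69%) lies in the main band.

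Further alveolar macrophage markers had mostly small ratios. Of 34 listed genes, 33 had a row and an adjusted p, and 1 was called, the Fabp5 named above. Over all rows with an adjusted p, 1.09% were called. At an unadjusted p under 0.05 there were 2 higher and 3 lower, beside 4.43% higher and 4.04% lower of all those rows. The median log2 ratio was 0.03, with 18 genes higher and 15 lower in knockout, and it turned to -0.02 without the genes that other lists also hold. Siglec5, a symbol that RefSeq lists as a synonym of both Siglecf and Siglece, so that the lectin gene it stands for here is not settled, averaged 945 and 972 in the authors' deposited table (ratio 1.03, adjusted p = 0.997). Chil3, a secreted chitinase-like protein, had a ratio of 1.09 (adjusted p = 0.826 in the authors' deposited table). Ctsd, a lysosomal protease, and Lyz2, the lysozyme of myeloid and alveolar type 2 cells, had ratios of 0.968 and 1.03. Bhlhe40, which encodes a transcription factor listed among these markers, missed the threshold narrowly. Its means were 4845 and 3779 in the authors' deposited table, a ratio of 0.780 (95% interval 0.677 to 0.898, adjusted p = 0.0513), while its partner Bhlhe41 had 0.938 (adjusted p = 0.983). No gene of the list with a row had a mean of 0 in either genotype.

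Of 27 scavenger receptor and lectin genes with an adjusted p, 0 were called by DESeq2, at a median log2 ratio of 0.01, and the 2 at an unadjusted p under 0.05 were Marco and Scarb1. Of 34 lysosomal genes, 0 were called, with 3 at an unadjusted p under 0.05, all higher (Ctsc, Ctsk and Lamp3). Lysosomal ratios were tightly grouped, with log2 values from -0.08 to 0.22 and a median of 0.02. Of 12 genes of the beta 2 integrins, their ligands and activators, 0 were called and 2 had an unadjusted p under 0.05, Itgam and Itgad, both higher.

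Other leukocytes were measured to place the 8 genes among them. Interstitial macrophage genes had a median log2 ratio of 0.0029 with 0 of 25 called and 2 at an unadjusted p under 0.05. Dendritic cell genes, which share Itgax, had -0.02 with 0 of 18 called and 4 at an unadjusted p under 0.05. Monocyte genes had 0.07 with 1 of 15 called, beside 1.09% of all rows, and with 2 higher and 3 lower at an unadjusted p under 0.05. The called gene, Nr4a1, averaged 14598 and 4408 in the authors' deposited table. Its implied spread between libraries of one genotype was 33.3%. Genes of all leukocytes had 0.08 with 0 of 12 called and 4 at an unadjusted p under 0.05, all higher. Neutrophil genes had 0.56 with 8 of 15 called by DESeq2, all 8 higher in knockout, beside 0.592% of all rows called higher. Of the 2 neutrophil genes with a lower mean in knockout, G0s2 had a ratio of 0.852 (unadjusted p = 0.00794) and Ltf 0.558 (unadjusted p = 0.205), and neither was called. Differences between the lists were not tested. Lymphatic endothelial genes, beside Mrc1, had -0.11 with 0 of 9 called and 0 at an unadjusted p under 0.05. Alveolar type 2 cell genes, the partners in surfactant turnover, had 0.06 with 0 of 16 called and 4 at an unadjusted p under 0.05. The part of these cells in the ratios of the 8 genes was not tested.

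**Figure D5:**
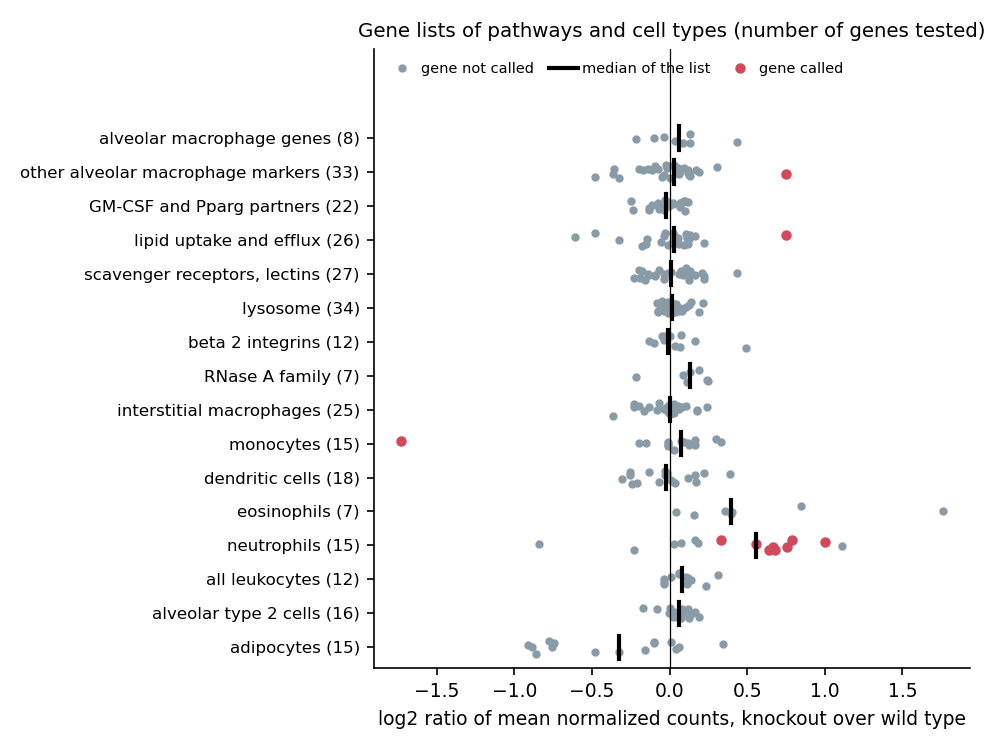
Log2 ratio of mean normalized counts, knockout over wild type, for each gene with an adjusted p in lists of pathways and cell types, with list medians as black bars. The alveolar macrophage genes (median 0.06) hold no called gene (red), whereas 8 of 15 neutrophil genes were called, all higher.

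Sequence letters near the start sites were compared as well. All 8 genes matched the RefSeq table, with 10 windows of 300 bases (250 before to 50 after a start). GAGGAA, the core of sites for PU.1, occurred on either strand in windows of 4 of the 8 genes, Marco, Mrc1, Cd68 and Pparg, and in 28.3% of all 32851 windows. TGANTCA, the AP-1 site, occurred in Cd68, at 2 places, and in Itgax, against 7.81% of all windows. TTGCNNAA, a C/EBP site, occurred in Ear1, Ear2, Cd68 and Pparg, against 10.8% of all windows. The match in Ear1 and Ear2 lies in the identical stretch printed above, so it is the same copied sequence. AGGTCA in 2 direct copies with 1 base between them, the repeat bound by PPAR and RXR, occurred in 0 of the 8 genes and in 0.0396% of all windows. A gene was counted if any of its windows matched, while the shares are per window, so the counts and shares are unlike measures. These are matches of letters in short windows and do not show binding.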

How the data were processed

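Lung RNA in 6 libraries, 3 per genotype, was sequenced as 50-base pairs, per the labels' protocols. Tools named in the submitters' processing notes, with no role given, are STAR 2.5.1b, Bowtie2, bedtools, SAMtools and DESeq2, with build mm10; how reads were counted is not given in the sources used here. The authors deposited group means, a signal in normalized counts, with a shrunken log2 fold change and its standard error. The Wald score and the DESeq2 p-value and adjusted p-value are also the authors' deposited values. A row was called at an adjusted p under 0.05.

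Ratios are of the deposited means, knockout over wild type. Each deposited error was divided by the share of the log2 ratio left after shrinkage, which gave the error behind the 95% normal intervals and, times 3.48, the difference needed for a call. The implied coefficient of variation takes a negative binomial spread. Reads per library were solved from low group means with only 1 whole-number solution, and the libraries carry no order. The labels do not state separate mice for each library, so p-values measure the spread between these libraries. Lengths, positions and coding sequences came from GENCODE M21 and promoters from RefSeq, compared with Biopython 1.88. Calculations used Python 3.11.15 and scipy 1.17.1 and were tested on simulated data.

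The 8 genes and the lists were chosen with earlier results of these data known. Named are the 8, the targeted RNA and, per list, up to 4 genes (called ones, then the highest means); Ear10, Ear7, Ear5, Prg2, Prg3, Csf2, Csf2ra, Csf2rb, Spi1, Bach2, Bhlhe40, Bhlhe41, Scarb1, Ctsc, Ctsk, Cidec, Itgam, Itgad, Krt78, Krt14, G0s2, Ltf, Krt4, Ivl and Adipoq were named after their values were seen. Alternatives were other thresholds, filters on low counts, unshrunken, rescaled or centred ratios, lists without shared genes, and the longest transcript.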

Additional observations from a re-analysis of the deposited data

How the results depend on the processing

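The call of 0 of 8 genes was the same under 7 settings: adjusted p under 0.1 or 0.01, no filter on low counts, a mean of at least 50, the unshrunken log2 ratio, group means rescaled to the same total, and centring on the median of all rows. The lowest adjusted p among the 8 genes over these settings was 0.325. Neither threshold could change the call, since the lowest deposited adjusted p of the 8 was 0.36 (DESeq2). The unshrunken ratio, divided by its error, repeats the authors' Wald test and is not a separate check. Fold changes are the same by construction under the thresholds and filters; under the other 3 settings each gene kept its direction. The median log2 fold change of the 8 was 0.04 for the shrunken values and 0.06 to 0.07 under the 3 settings with unshrunken ratios. The adipocyte list without genes held by other lists had a median log2 ratio of -0.74, and the further alveolar macrophage markers turned from 0.03 to -0.02. The integrin list turned from -0.0092 to 0.0022 at a mean of at least 50. Per kb of longest transcript, Mrc1 came to 842, Itgax to 783, Pparg to 369 and Krt79 to 460. Leaving out a library and a count test were not run, since the reads of the 8 genes have several solutions per group mean. No paired analysis was possible because the table holds only group means and the labels give no shared numbers. With 3 libraries per genotype, an observed increase had to reach a ratio of 1.18 to 1.54, depending on the gene, to be called. A true difference of that size could still be missed.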
